A study of Homo sapiens with 6 samples.

Results

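The genes described here are the RAB GTPases, 63 protein-coding genes among the 60612 genes with counts. They were chosen by symbol: RAB followed by digits and an optional letter and digit, with regulators such as RABGAP1, RABEP1 and RABIF, readthrough symbols and 8 pseudogenes left out. By the transport step each is best known for, 14 were placed in the endocytic route, 9 in recycling, 18 at the Golgi and 13 in secretion, and 9 were kept apart as other. The material was SKBR3, an established HER2-positive line of mammary epithelial cells, and the series asked how its RNA changes while resistance to trastuzumab, an antibody against HER2, builds up. The parental group was 3 libraries of untreated SKBR3, and the trastuzumab group was 3 libraries of SKBR3 kept for 30 weeks under rising amounts of the antibody. The titles of the trastuzumab libraries call them SKBR3_HR. Whether the antibody was still present at harvest is not stated. Effects of the antibody, of selection under it and of time in culture cannot be told apart in this design. All 6 libraries come from a single line, and nothing says that replicates were separate cultures, so a p-value here reflects the scatter among these samples alone, which can be technical.

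A Rab protein is a switch on a membrane. An exchange factor (GEF) loads it with GTP and fixes it to a compartment, it then recruits effectors such as tethers and motors, a GTPase-activating protein (GAP) turns it off, and GDP dissociation inhibitor (GDI) carries it back through the cytosol on its prenyl anchors. Each Rab marks its own set of membranes, so the family as a whole maps the routes by which receptors such as HER2 are taken up, returned to the surface or degraded, and by which proteins are made and secreted.

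Depth was 71015138 to 82857810 counts per library. Levels are CPM, counts per M of library total, with the totals scaled by edgeR's TMM factors, and 0 counts allow at most 0.0372 to 0.0428 CPM (3 counts, counting error only). Correlations of log CPM were 0.9896 to 0.9933 within groups and 0.9472 to 0.9615 between them. ERBB2, the HER2 gene amplified in this line, stood at 7922 ± 317 CPM in the parental and 11045 ± 249 CPM in the trastuzumab libraries (SD, n = 3 each), and CDH1, which SKBR3 lacks, at 0.168 and 0.0777 CPM. Markers of other cell types were summed per library. Basal markers gave 3.49 to 5.2 CPM in parental and 2.77 to 23.2 in trastuzumab libraries. Among them, trastuzumab replicates 1, 2 and 3 had KRT14 at 0.0571, 7.53 and 7.72 CPM and KRT5 at 0.614, 9.07 and 8.26 CPM. Fibroblast markers gave 9.25 to 19.3 and 6.54 to 11, melanocyte markers 3.91 to 4.17 and 3.74 to 4.1, and neuroendocrine markers 5.88 to 7.42 and 4.79 to 5.45, with CHGB at 0. Endothelial markers summed to 28.5 to 31.7 and 79 to 86 CPM, of which CDH5 gave 26.4 and 79.3 on average, and immune markers to 14.9 to 17.3 and 42.7 to 49.2 CPM, of which CD68 gave 14.8 and 43 while CD2 was at 0. Their part in the RAB results was not tested. In bulk RNA, fewer cells of a kind and less RNA per cell cannot be told apart.

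Of the 63 RAB genes, 55 had enough counts to be tested. In the trastuzumab group, 13 were higher and 18 lower than in the parental group at an edgeR adjusted p below 0.05, and 24 did not pass. That is 56.4% changed, where 49.3% of all 17854 tested genes changed. The higher share was 23.6%, beside a background of 23.9%, and the lower share 32.7%, beside 25.4%. The values of the 3 trastuzumab libraries lay wholly above or below those of the 3 parental ones for 33 of the 55 (60%), beside 57.5% of all tested genes. The family thus changed about as often as any gene. The median log2 fold change was 0.0259, beside -0.00566 for all genes, and 3 members (5.45%) differed by at least 2-fold, beside 12.5% of all genes. These were RAB31 and RAB23, which fell, and RAB33A, which stood at 0.0813 and 0.323 CPM and did not pass (edgeR adjusted p = 0.0962).

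**Figure D1:**
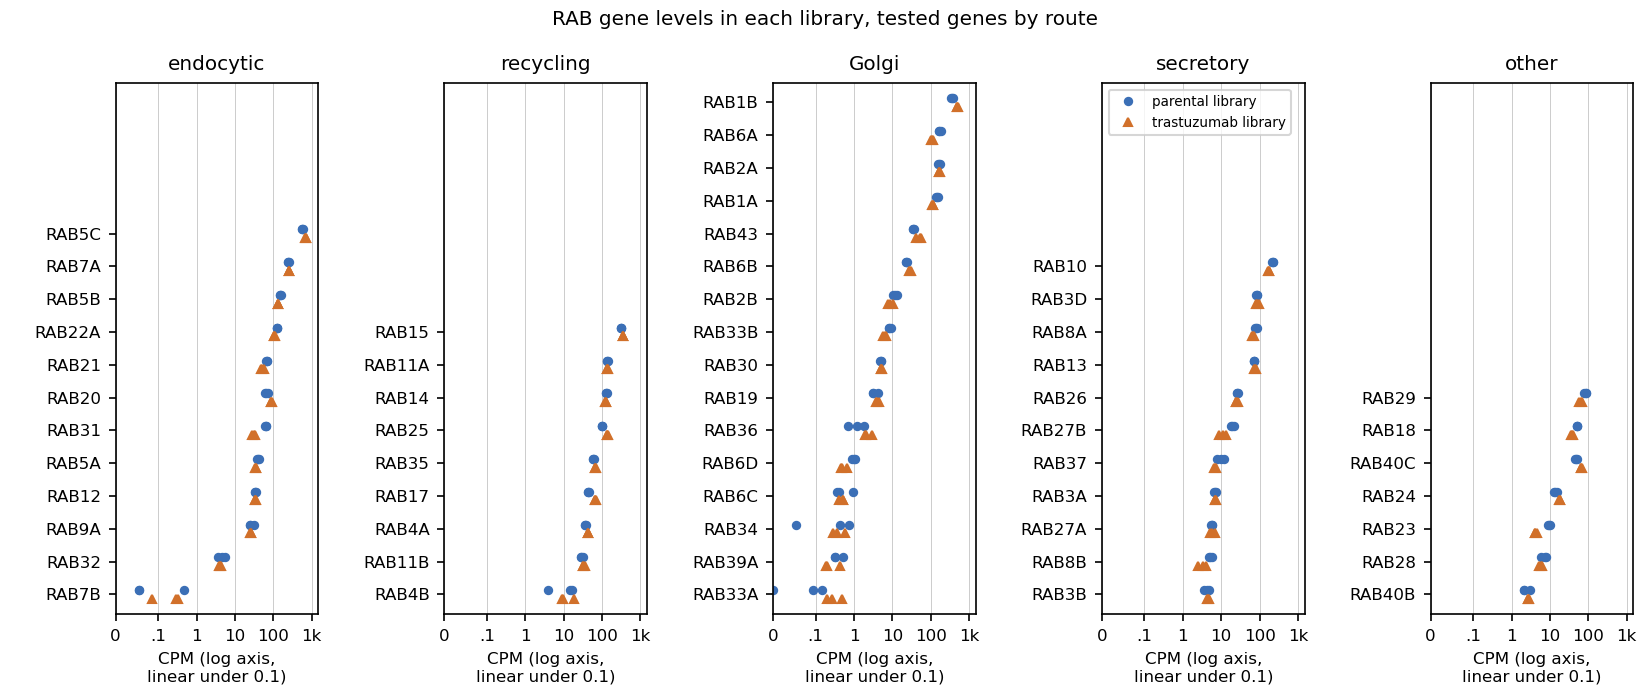
Levels of the 55 tested RAB genes by route, in CPM on an axis that is logarithmic above 0.1 and linear below. Each circle is a parental library and each triangle a trastuzumab library. RAB31 and RAB23 show the widest gaps among genes above 1 CPM, and RAB4B the widest scatter within a group among genes above 10 CPM.

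Fold changes of RAB genes ran with base composition. Across the 55 members, log2 fold change and transcript GC content had a Spearman correlation of 0.657 as a description over genes of the same 6 libraries, and the 11665 protein-coding genes of at least 1 CPM had 0.642. Among the 25 RAB genes of 50% GC or more, 12 rose and 2 fell; among the 30 below 50%, 1 rose and 16 fell. Their median log2 fold changes were 0.228 and -0.249, beside 0.266 and -0.345 for protein-coding genes split the same way. A second fit, called the corrected fit below, took a smooth trend on GC content and exon length out of each library before the same edgeR test. It left medians of -0.0403 and 0.0154, called 12 RAB genes higher and 13 lower, and changed the sign of 19 members. It called 45.5% of RAB genes changed, beside 37.3% of all genes, with backgrounds of 18.3% for higher and 19.0% for lower. Where such a trend goes along with the treatment, the correction also removes real changes that follow GC content or length, so the corrected value or call is given beside most uncorrected ones. Summed levels were not corrected.

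**Figure D2:**
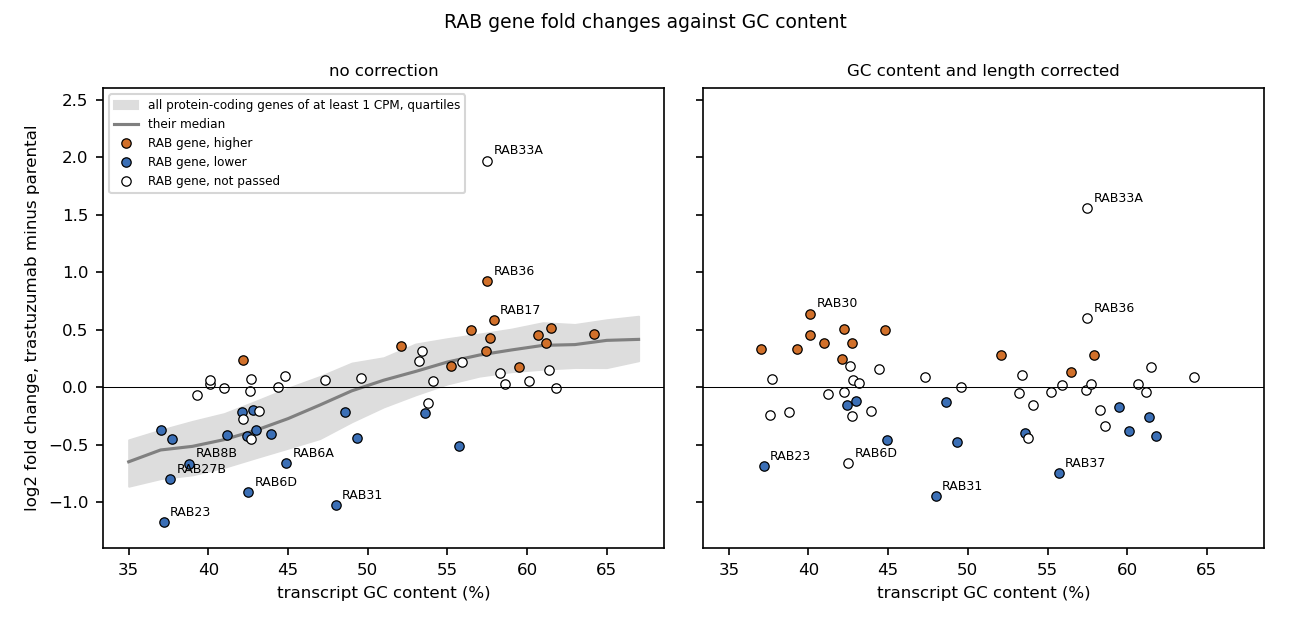
Log2 fold change of each tested RAB gene (points, coloured by call) against transcript GC content in percent, without correction on the left and in the corrected fit on the right. The grey line and band are the median and quartiles of the 11665 protein-coding genes, and the RAB genes lie along that band on the left, with RAB31, RAB23 and RAB6A among those below it.

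In both fits 13 RAB genes changed the same way. RAB4A, RAB25, RAB17 and RAB6B were higher, and RAB31, RAB5B, RAB6A, RAB1A, RAB37, RAB10, RAB8A, RAB23 and RAB29 were lower. RAB21 and RAB22A were lower without correction and higher with it, and RAB35 the reverse. A further 15 were called only without correction and 9 only with it. How often all genes fall in these classes, or change sign, was not computed. Over all genes, 49.3% were called without correction and 37.3% with it. The 2 of each direction that changed most among these 13 and have at least 100 unbroken bases upstream of the start outside any GENCODE 29 exon are shown by promoter, from RefSeq on GRCh38.p14, 5′ to 3′ on the gene's strand. Capitals mark GC boxes (GGGCGG), the element that the general activator SP1 binds.
RAB31, chr18:9708051-9708164 (+): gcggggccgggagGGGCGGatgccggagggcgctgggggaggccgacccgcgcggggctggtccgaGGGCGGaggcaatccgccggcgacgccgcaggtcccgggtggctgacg
RAB23, chr6:57222315-57222557 (-): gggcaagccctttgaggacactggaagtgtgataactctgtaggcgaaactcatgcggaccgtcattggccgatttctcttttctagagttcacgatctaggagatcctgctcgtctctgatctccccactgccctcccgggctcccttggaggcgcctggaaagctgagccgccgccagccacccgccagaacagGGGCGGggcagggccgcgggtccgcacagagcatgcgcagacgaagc
RAB25, chr1:156060910-156061159 (+): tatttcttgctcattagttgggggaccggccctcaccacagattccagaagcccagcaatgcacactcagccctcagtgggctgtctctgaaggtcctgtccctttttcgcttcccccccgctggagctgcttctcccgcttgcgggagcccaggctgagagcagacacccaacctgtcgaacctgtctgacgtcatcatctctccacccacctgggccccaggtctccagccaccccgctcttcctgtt
RAB6B, chr3:133895883-133896132 (-): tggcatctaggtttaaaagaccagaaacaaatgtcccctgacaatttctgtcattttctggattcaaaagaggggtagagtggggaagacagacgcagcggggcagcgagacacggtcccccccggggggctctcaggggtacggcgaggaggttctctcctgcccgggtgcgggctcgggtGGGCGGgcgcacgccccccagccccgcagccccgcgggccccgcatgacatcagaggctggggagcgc
The printed RAB31 stretch is 82.5% GC with 18 CpG in 114 bases. RAB6B is 65.2% with 18 in 250, RAB23 62.1% with 17 in 243 and RAB25 60.4% with 8 in 250. The RAB31 stretch ends 137 bases before the start, so it is only the outer part of that promoter, while the others end 1 to 8 bases before it. RAB6B, which rose, and RAB23, which fell, were thus close in composition. Of the 63 genes, 50 have a promoter in the table and 45 of those were tested. In the 250 bases before the start, on either strand, a GC box was found in 49 of the 66 promoters of these 45 genes (74.2%), and in 42.6% of all 35116 promoters. The 35116 were not matched to the RAB promoters, and enrichment was not tested. By gene, 8 of 10 called higher without correction had a GC box, as did 14 of 15 called lower and 17 of 20 that did not pass. The E-box CACGTG, which MYC and TFEB family factors bind, was found in 5 of the 66 (7.58%), close to the 6.34% of all promoters. These belong to RAB21, RAB24, RAB31, RAB4A and RAB5A, of which 2 rose and 3 fell; in RAB31 it lies outside the printed stretch. The sterol element TCACCCCAC was found in 0 of the 66 and in 0.362% of all. Promoter GC content and log2 fold change had a Spearman correlation of 0.0432 over the 45 genes, as a description, while its median was 70.6% in those called higher and 64.8% in those called lower.

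In the endocytic route, 2 of 12 tested genes rose, 5 fell and 5 did not pass (corrected fit: 2 higher, 2 lower). That is 58.3% changed, beside 49.3% of all genes (corrected 33.3% beside 37.3%). RAB31, which carries cargo between the trans-Golgi network and endosomes, showed the clearest fall of the family. The gene lies at chr18:9708165-9862551 (hg38). It had 62.7, 64 and 62.1 CPM in the parental libraries and 31.9, 28.1 and 32.7 CPM in the trastuzumab libraries. The groups did not overlap, and the parental mean was 2.04 times the trastuzumab mean, a log2 fold change of -1.03 (SE 0.0695, edgeR adjusted p = 6.18e-09). The corrected fit gave -0.95. Its nearest relative RAB22A, which acts on early endosomes and in recycling, had 128, 125 and 122 CPM against 106, 107 and 110, a fall of log2 -0.22 (edgeR adjusted p = 0.00091) that the corrected fit turned to 0.24 (adjusted p = 0.000183).

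The RAB5 genes drive fusion of early endosomes, and their 3 genes did not move together. RAB5C, at chr17:42124976-42155044, was the most expressed RAB gene per length, with 183 ± 5.71 FPKM in parental and 217 ± 5.34 in trastuzumab libraries (SD, n = 3). In CPM it rose from 545, 546 and 586 to 701, 711 and 678, a log2 fold change of 0.32 (SE 0.0431, edgeR adjusted p = 1.1e-05). The corrected fit gave -0.0286, which did not pass. RAB5B fell from 146, 153 and 157 to 133, 130 and 129 CPM, in both fits (log2 -0.22 and, corrected, -0.13, edgeR adjusted p = 0.000857 and 0.0314). RAB5A, at 41.5, 39.3 and 36.7 against 34.4, 32.7 and 35.5 CPM, fell by log2 -0.20 (edgeR adjusted p = 0.0332), and the corrected value of 0.0658 did not pass. Its call was lost when parental replicate 1, parental replicate 2, trastuzumab replicate 1 or trastuzumab replicate 2 was left out (edgeR adjusted p = 0.128, 0.0781, 0.0632 and 0.124).

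Of the remaining endocytic genes, RAB7A, the Rab of late endosomes and lysosomes, stood at 257, 238 and 240 CPM against 259, 252 and 258, and the groups overlapped (log2 0.065, edgeR adjusted p = 0.256; corrected 0.09). RAB9A, for return from late endosomes to the Golgi, RAB12 and RAB32 overlapped as well, at -0.0325, 0.0053 and -0.14 (corrected 0.19, 0.16 and -0.44, none of which passed). RAB20, linked to endosome and phagosome maturation, rose from 61, 63.8 and 74.7 to 89.1, 89.1 and 89.9 CPM (log2 0.43, edgeR adjusted p = 4.75e-05). Its corrected value of 0.0302 did not pass. RAB21, which binds integrins during their uptake, fell from 67.7, 68.4 and 65.4 to 55.6, 49 and 50.9 CPM (log2 -0.37), but its transcript has the lowest GC content of the tested members (37%) and the corrected fit gave 0.33. RAB7B stood at 0.19 and 0.236 CPM. RAB38 and RAB9B were not tested, and RAB9B had no count in any library.

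The recycling route held 3 of the 4 genes that rose in both fits (RAB17, RAB25 and RAB4A). Of its 9 genes, all tested, 5 rose, 0 fell and 4 did not pass, and in the corrected fit 5 were higher and 2 lower. Over all genes, 23.9% rose and 25.4% fell (corrected 18.3% and 19.0%). RAB17, an epithelial Rab of transcytosis and apical recycling at chr2:237574322-237601614, had 44.1, 45.2 and 43.9 CPM in the parental libraries and 64.8, 66.4 and 67.9 CPM in the trastuzumab libraries. The groups lay far apart, with a 1.49-fold rise (log2 0.58, SE 0.0569, edgeR adjusted p = 3.43e-07). The corrected value of 0.28 passed as well. The reads of RAB17-DT on the opposite strand cannot be separated from it where they overlap.

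RAB25, the epithelial relative of RAB11 that returns receptors and integrins to the surface, lies at chr1:156061160-156070514. It rose from 99.4, 99.2 and 97.8 to 138, 142 and 138 CPM, with a spread of under 2 CPM in either group (SD 0.873 and 1.97, n = 3 each). The rise was 1.41-fold (log2 0.50, SE 0.0454, edgeR adjusted p = 1.67e-07) and fell to 0.13 in the corrected fit (adjusted p = 0.0183). RAB4A, which runs fast recycling from early endosomes, rose from 36.8, 35.5 and 37.7 to 42.8, 43.7 and 43.1 CPM. Its transcript is 42.2% GC, and its log2 fold change of 0.24 became 0.51 in the corrected fit (edgeR adjusted p = 0.006 and 8.01e-06). It was the single member below 50% GC that rose without correction.

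The remaining recycling genes depended on the correction. RAB11A, the Rab of the recycling endosome, had 140, 137 and 134 against 136, 133 and 142 CPM, overlapping groups with a log2 difference of -0.0034. The corrected fit called it higher at 0.39 (edgeR adjusted p = 1.34e-06). RAB11B overlapped as well, with 28.4, 29 and 32 against 35.9, 31.7 and 31.4 CPM, and was called lower in the corrected fit at -0.26 (adjusted p = 0.0133). RAB14, between Golgi and endosomes, went from -0.0665 to 0.34, called only in the corrected fit. RAB15, a Rab of the recycling endosome best known from neurons, was the most abundant member of this route per length (56.9 ± 0.798 FPKM in parental libraries) and rose from 304, 312 and 318 to 350, 354 and 356 CPM (log2 0.18, edgeR adjusted p = 0.00122), and its corrected value of -0.0414 did not pass. RAB35, of fast recycling, rose by 0.18 and was lower by -0.17 in the corrected fit. Its uncorrected call was lost without parental replicate 1 or trastuzumab replicate 2 (edgeR adjusted p = 0.0619 and 0.082). RAB4B scattered too widely to compare: 14.2, 3.94 and 16.2 CPM in parental and 18.6, 9.76 and 9.06 CPM in trastuzumab libraries. It shares its strand with the readthrough RAB4B-EGLN2, and its coefficients of variation of 57.5% and 42.5% were the largest of the 36 members at 10 CPM or more, whose medians were 4.12% and 4.21%.

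**Figure D3:**
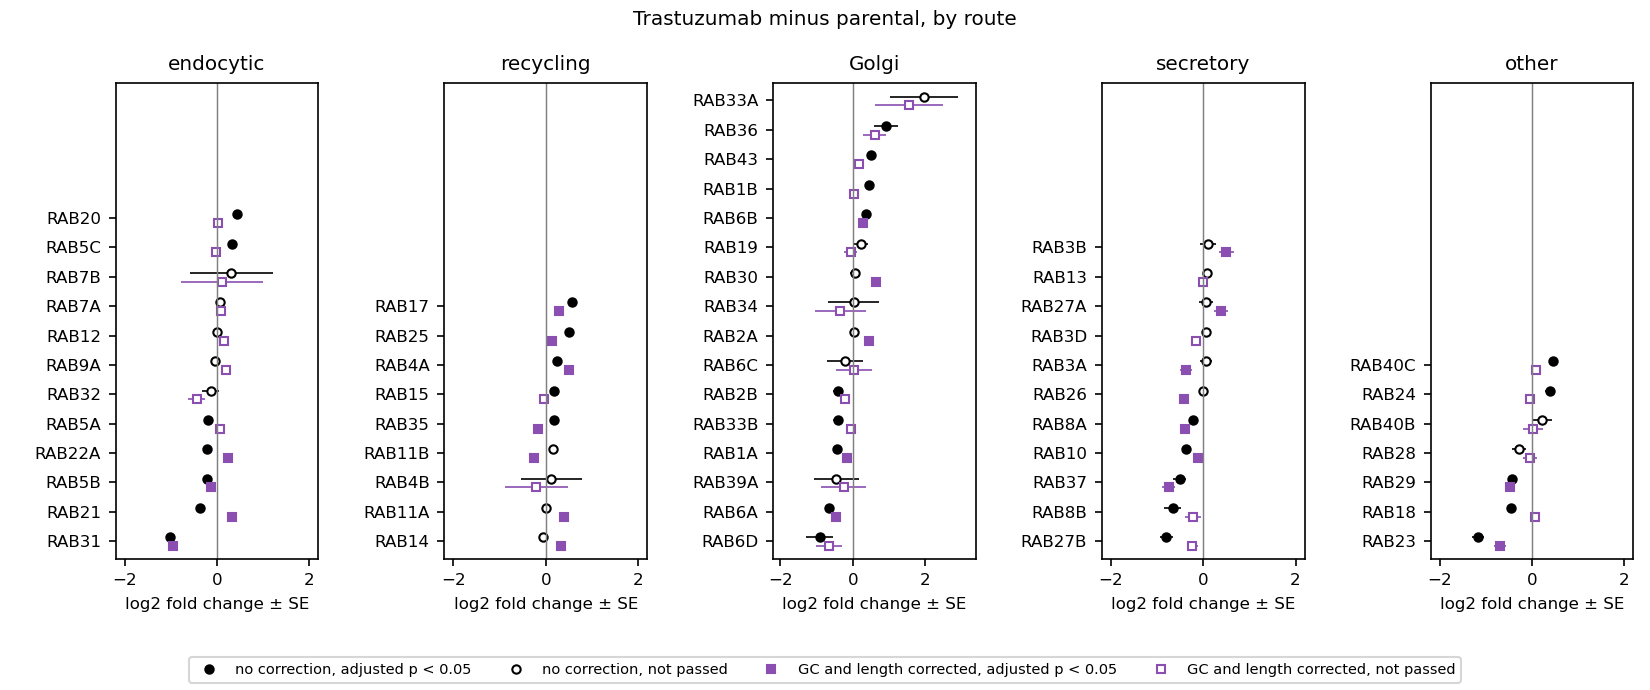
Log2 fold change (trastuzumab minus parental, bars are SE) of each tested RAB gene by route. Circles are values without correction and squares are corrected values, filled where the edgeR adjusted p is below 0.05. Circles of the secretory genes lie at or below 0.0997, while 5 recycling genes lie above 0 and are filled.

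At the Golgi, 4 of 16 tested genes rose, 5 fell and 7 did not pass (corrected fit: 3 higher, 2 lower). Changed genes made up 56.2%, beside 49.3% of all genes (corrected 31.2% beside 37.3%). RAB6A, which governs retrograde traffic and exit of carriers from the Golgi, lies at chr11:73675638-73761137 and fell from 181, 168 and 167 to 114, 107 and 104 CPM. No trastuzumab library came near a parental one, and the log2 fold change was -0.66 (SE 0.0517, edgeR adjusted p = 3.09e-08). The corrected value was -0.46. Its relative RAB6B moved the other way, from 22.2, 23.3 and 22.2 to 30.2, 29.4 and 27.4 CPM (log2 0.36, edgeR adjusted p = 0.000617; corrected 0.28). RAB6C and RAB6D, close copies of RAB6A whose reads the counting could have split, stood at 0.557 and 0.482 and at 0.989 and 0.525 CPM. RAB6D was called lower (edgeR adjusted p = 0.0493), but in none of the fits that left out a single library other than trastuzumab replicate 1, where adjusted p ran from 0.06 to 0.123.

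RAB1A and RAB1B, the Rabs of transport from the endoplasmic reticulum to the Golgi, also went opposite ways. RAB1B, at chr11:66268533-66277492, had 340, 354 and 374 CPM in parental and 486, 501 and 477 CPM in trastuzumab libraries, a rise of log2 0.46 (SE 0.0451, edgeR adjusted p = 3.77e-07). At 164 ± 6.26 FPKM in parental libraries it was the second RAB gene per length. The corrected value of 0.0297 did not pass. RAB1A, at chr2:65070696-65130331, fell from 158, 147 and 140 to 112, 108 and 111 CPM (log2 -0.43, edgeR adjusted p = 3.05e-06), and by -0.16 in the corrected fit (adjusted p = 0.00378). Its transcript has 42.4% GC against 60.7% for RAB1B.

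Among the other Golgi genes, RAB2A, of transport between the endoplasmic reticulum and Golgi and of fusion with lysosomes, overlapped at 172, 161 and 156 against 169, 166 and 163 CPM and was called higher in the corrected fit (0.45). RAB2B fell from 12, 10.5 and 13.2 to 10.4, 7.68 and 8.66 CPM, where 10.4 lies next to 10.5 (log2 -0.41, edgeR adjusted p = 0.016). That call was lost without parental replicate 3, trastuzumab replicate 2 or trastuzumab replicate 3 (adjusted p = 0.0804, 0.0911 and 0.0558). RAB33B, a Golgi Rab with a part in autophagy, fell from 8.98, 8.32 and 7.93 to 5.74, 6.29 and 6.86 CPM (edgeR adjusted p = 0.0138), a call lost without replicate 1 of either group (adjusted p = 0.0593 and 0.0577). RAB43 rose from 35.2, 35.7 and 34.2 to 51, 42.3 and 56.8 CPM (log2 0.51, edgeR adjusted p = 0.000178), and shares its strand with the readthrough ISY1-RAB43. RAB36 rose from 1.8, 1.17 and 0.701 to 2.04, 1.93 and 2.97 CPM (log2 0.92, edgeR adjusted p = 0.0254), a call lost without parental replicate 2 or 3 or trastuzumab replicate 3 (adjusted p = 0.0708, 0.108 and 0.142). The corrected fit called none of RAB2B, RAB33B, RAB43 and RAB36. RAB30 overlapped near 5 CPM and was higher only in the corrected fit (0.64), and RAB19, RAB34 and RAB39A did not pass in either fit. RAB39B and RAB41 were not tested.

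In the secretory route 0 of 11 tested genes rose, 5 fell and 6 did not pass, and in the corrected fit 2 were higher and 5 lower. The changed share was 45.5%, beside 49.3% of all genes (corrected 63.6% beside 37.3%). Over all genes, 23.9% rose and 25.4% fell (corrected 18.3% and 19.0%). RAB10, which brings vesicles such as those with GLUT4 to the plasma membrane, was the leading member per length (54.1 ± 3.06 FPKM in parental, 39.9 ± 1.04 in trastuzumab libraries). At chr2:26034107-26137454, it fell from 230, 217 and 210 to 171, 165 and 173 CPM (log2 -0.37, SE 0.0475, edgeR adjusted p = 6.18e-06), and by -0.12 in the corrected fit (adjusted p = 0.0133). RAB8A, of polarised delivery to the surface and cilium, fell from 83.3, 77 and 81.2 to 65.3, 72.2 and 68.8 CPM. It was 1 of 2 members of over 50% GC that fell, and its log2 fold change of -0.23 grew to -0.40 in the corrected fit (edgeR adjusted p = 0.00248 and 5.63e-06). RAB37, of regulated secretion, was the other, from 9.59, 11.9 and 7.96 to 6.85, 6.58 and 7.24 CPM, with -0.51 and, corrected, -0.75. Without parental replicate 2, its uncorrected call was lost (log2 -0.35, edgeR adjusted p = 0.0659).

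RAB27B, of exosome and granule release, fell from 21.7, 17.7 and 18.8 to 13.5, 8.6 and 11.3 CPM (log2 -0.80, SE 0.145, edgeR adjusted p = 0.00045). Its transcript is 37.6% GC, and the corrected value of -0.24 did not pass. RAB27A, its closest relative, overlapped at 5.6, 5.8 and 5.57 against 6.92, 5.61 and 5.25 CPM. RAB8B fell from 5.87, 4.94 and 4.98 to 3.34, 2.49 and 4.13 CPM (log2 -0.67, edgeR adjusted p = 0.00848). It did not pass with correction or without trastuzumab replicate 2 (log2 -0.49, adjusted p = 0.0518). The RAB3 genes of regulated exocytosis overlapped between groups: RAB3D stood at 84.7 and 87.9 CPM on average, RAB3A at 6.74 and 6.99, and RAB3B at 4.23 and 4.53. RAB13, of epithelial junctions, overlapped at 70.9 and 74.8 CPM, and RAB26 at 25.9 and 25.7. In the corrected fit RAB3B and RAB27A were called higher and RAB3A and RAB26 lower, beside RAB8A, RAB10 and RAB37. RAB3C had no count in any library, and RAB44 was at 0 in 5 of the 6 libraries.

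Outside these routes, 2 of 7 tested genes rose, 3 fell and 2 did not pass (corrected fit: 0 higher, 2 lower). With only 7 genes, the changed share was 71.4%, beside 49.3% of all genes (corrected 28.6% beside 37.3%). RAB23, which restrains Hedgehog signalling at the cilium, lies at chr6:57186992-57222314 and had 10.3, 8.81 and 9.17 CPM in parental and 4.04, 4.01 and 4.49 CPM in trastuzumab libraries. The groups did not overlap, and the parental mean was 2.26 times the trastuzumab mean, a log2 fold change of -1.18 (SE 0.137, edgeR adjusted p = 2.15e-06) and a corrected value of -0.69. BAG2 lies on the opposite strand and overlaps it. RAB29, which recruits the kinase LRRK2 to the Golgi, fell from 87.1, 87.4 and 78.1 to 66.6, 56.4 and 63 CPM, by a like amount in both fits (log2 -0.44 and -0.47, edgeR adjusted p = 3.11e-05 and 1.57e-05). RAB18, of lipid droplets and the endoplasmic reticulum, fell from 51.3, 51.8 and 50.5 to 39.6, 37.7 and 35.1 CPM (log2 -0.45, edgeR adjusted p = 2.63e-05), and its corrected value of 0.069 did not pass. RAB24, with a part in autophagy, and RAB40C, which joins a ubiquitin ligase, rose by log2 0.39 and 0.46, with corrected values of -0.0403 and 0.0875 that did not pass. RAB28 and RAB40B did not pass in either fit, although RAB28 passed without parental replicate 2 (log2 -0.40, edgeR adjusted p = 0.047). RAB42 was at 0 in all libraries and RAB40A in 5 of 6.

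Summed over a route, the change in RNA depended on a few members. RAB genes of recycling gave 856, 850 and 868 CPM in parental and 978, 968 and 979 CPM in trastuzumab libraries, 1.14-fold higher. RAB genes of secretion gave 549, 533 and 515 CPM and then 477, 457 and 462 CPM, a ratio of 0.874. Both sums kept their direction and did not overlap with RLE, upper quartile or library totals as scaling (ratios of 1.09 to 1.18 and of 0.841 to 0.907). The sum of the other genes (217, 218 and 214 against 201, 195 and 193 CPM) and the endocytic sum also never overlapped. Among all tested single genes, 57.5% did not overlap in CPM. None of these scalings takes out the GC trend. RAB15, 36.3% of the recycling sum in each group, went from log2 0.18 to -0.0414 in the corrected fit. That fit called 5 recycling genes higher and 2 lower. The endocytic sum, of which RAB5C made up 40.4% in parental and 47.6% in trastuzumab libraries, was 1372, 1369 and 1408 against 1473, 1464 and 1453 CPM. The Golgi sum was 941, 920 and 925 against 991, 982 and 970 CPM, with the share of RAB1B going from 38.3% to 49.8% and that of RAB6A from 18.5% to 11.1%. With library totals alone the Golgi sums overlapped, as did the sums of all 63 genes, which were 3936, 3890 and 3929 against 4120, 4065 and 4057 CPM with TMM. Sums and shares are of CPM, not per length, and were not tested.

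**Figure D4:**
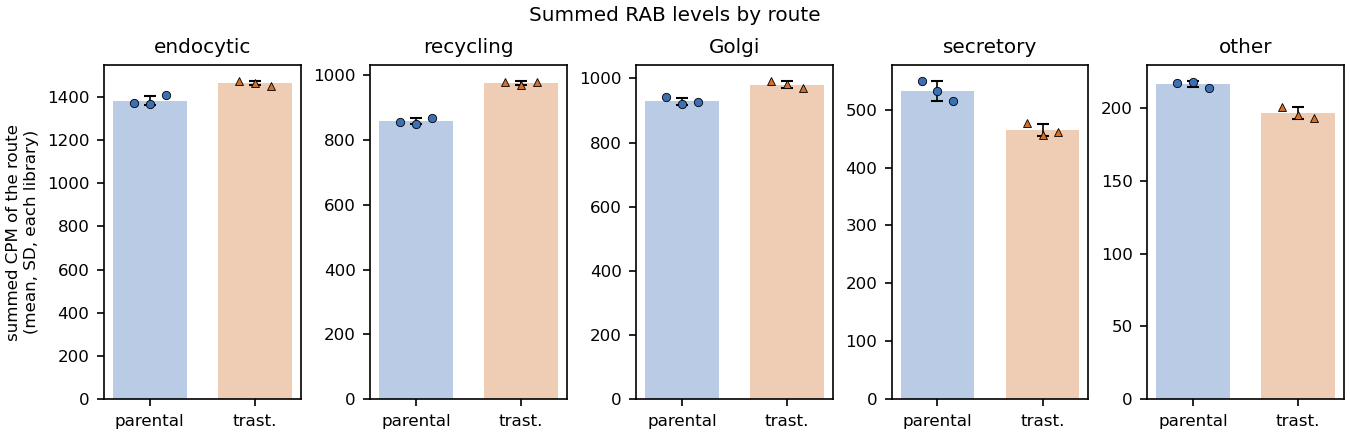
Summed CPM of the RAB genes of each route, as mean bars with SD and a point for each library, on axes that start at 0. In every route the points of the groups do not overlap. The endocytic, recycling and Golgi bars are higher in trastuzumab libraries, and the secretory and other bars are lower.

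Ratios within 13 pairs of close relatives cancel the scaling of the libraries. They are ratios of CPM, not per length, so they show shifts between groups and not which gene has more RNA. In 9 pairs the 3 trastuzumab ratios lay wholly to one side of the 3 parental ones. Among all tested genes, 57.5% were likewise without overlap in CPM, and a share for pairs of other genes was not computed. An exact two-sided permutation test cannot go below p = 0.1 with 3 against 3, which is what these 9 pairs gave (0.144 adjusted over the 13 pairs), so none passes. The CPM ratio of RAB6A to RAB6B was 7.57 in parental and 3.74 in trastuzumab libraries, a log2 difference of -1.02 (SE 0.0568), and -0.74 in the corrected fit. The CPM ratio of RAB22A to RAB31 was 1.99 and then 3.48, a log2 difference of 0.81 (SE 0.0634) and 1.19 with correction. For RAB1A to RAB1B the CPM ratio was 0.417 and then 0.226 (log2 difference -0.88, corrected -0.19). For RAB27A to RAB27B it was 0.296 and then 0.542 (log2 difference 0.87, corrected 0.63). The CPM ratio of RAB11A to RAB25 went from 1.39 in parental to 0.984 in trastuzumab libraries. This log2 difference of -0.50 became 0.25 with correction. Per length RAB25 was the higher in both groups, at 52.7 and 70.8 FPKM against 21.8 and 20.7 for RAB11A.

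The other non-overlapping pairs were RAB5A/RAB5C, RAB5B/RAB5C, RAB2A/RAB2B and RAB8A/RAB8B, with log2 differences of -0.51, -0.54, 0.44 and 0.45. With correction these became 0.094, -0.099, 0.66 and -0.18, so RAB5A/RAB5C and RAB8A/RAB8B changed sign. RAB4A/RAB4B, RAB11A/RAB11B, RAB3B/RAB3D and RAB40B/RAB40C overlapped (exact permutation p = 0.9, 0.2, 0.6 and 0.2). In 10 of the 13 pairs, and in 7 of the 9 without overlap, the ratio moved towards the member of higher GC content. Of the 13, 8 kept their sign with correction. RAB22A/RAB31, at 42.1% and 48% GC, and RAB6A/RAB6B, at 44.9% and 52.1%, had the largest differences in the corrected fit.

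**Figure D5:**
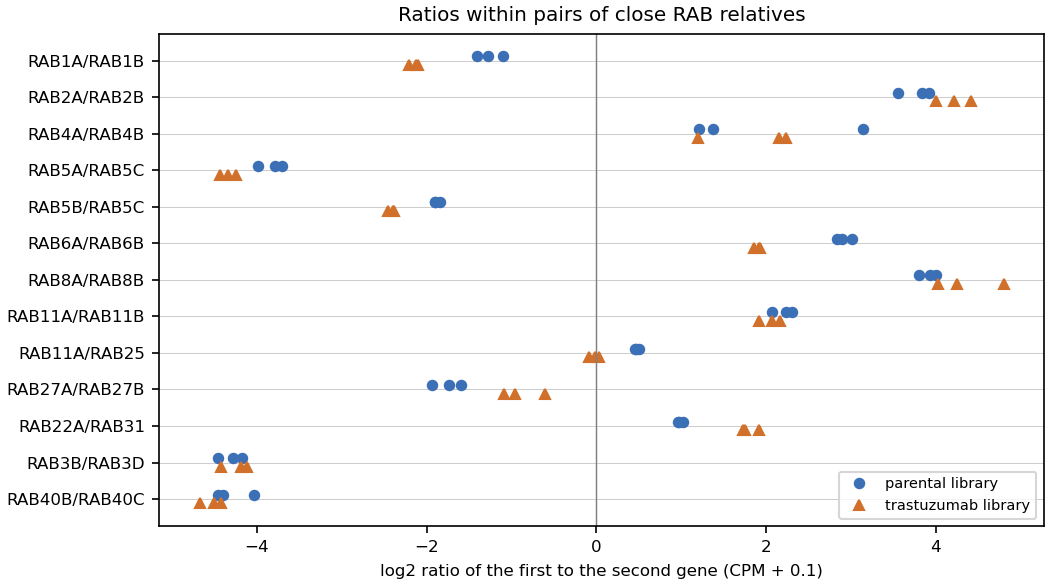
Log2 ratio of the CPM of the first to the second gene in 13 pairs, with 0.1 CPM added to each, for every parental (circles) and trastuzumab (triangles) library. RAB6A/RAB6B and RAB1A/RAB1B shift to the left and RAB22A/RAB31 and RAB27A/RAB27B to the right without overlap.

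Per length, RNA of the family was uneven. In parental libraries 24 members had at least 10 FPKM, 19 had 1 to 10, and 20 were under 1 or not listed. After RAB5C and RAB1B, at 183 and 164 FPKM, came RAB15 at 56.9, RAB10 at 54.1 and RAB25 at 52.7, then RAB1A at 40.4, RAB20 at 39.8, RAB6A at 31.6, RAB7A at 30.7, RAB14 at 27, RAB2A at 26.3 and RAB13 at 23.2. RAB5C and RAB1B stood clear of the rest and apart from each other by more than their SDs of 5.71 and 6.26, while RAB15 and RAB10 (SD 0.798 and 3.06), RAB10 and RAB25 (3.06 and 1.01), RAB1A and RAB20 (2.76 and 3.89), RAB6A and RAB7A (1.67 and 1.44), and RAB14 and RAB2A (0.752 and 1.53) were within theirs. In trastuzumab libraries RAB5C and RAB1B were at 217 and 215 FPKM, within their SDs of 5.34 and 5.1.

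The machinery that serves all Rabs was read from lists of its genes. Of 8 factors that prenylate Rabs or return them through the cytosol, 0 rose, 4 fell and 4 did not pass (corrected: 1 higher, 4 lower), with a median log2 fold change of -0.18. Over all genes, 23.9% rose and 25.4% fell (corrected 18.3% and 19.0%). GDI2, which extracts Rabs from membranes, fell from 404, 371 and 350 to 268, 247 and 259 CPM (log2 -0.54, edgeR adjusted p = 3.36e-07; corrected -0.30). CHM and CHML, the escort proteins that present new Rabs for prenylation, fell by log2 -0.80 and -0.61 (edgeR adjusted p = 6.11e-05 and 3.6e-05), and their corrected values of -0.15 and -0.14 did not pass. RABGGTB, a subunit of the transferase itself, was the fourth, at -0.35, and was called higher in the corrected fit at 0.14.

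Of 36 tested GEFs, 11 rose and 14 fell (corrected 12 and 11), and of 38 GAPs, 13 rose and 16 fell (corrected 9 and 10). Over all genes the shares were 23.9% and 25.4%, and 18.3% and 19.0% in the corrected fit. The DENN-domain GEF DENND5B fell from 6.45, 7.82 and 7.51 to 2.1, 2.7 and 2.48 CPM (log2 -1.58, edgeR adjusted p = 7.69e-07; corrected -1.20). DENND1B fell by -0.99 (corrected -0.33). RIN3, a GEF of the RAB5 group, rose from 2.93, 2.85 and 2.6 to 4.88, 5.88 and 6.43 CPM (log2 1.04, edgeR adjusted p = 8.28e-05; corrected 0.81). Among GAPs, TBC1D16 rose from 226, 245 and 236 to 411, 423 and 434 CPM, 1.79-fold (log2 0.84, edgeR adjusted p = 4.42e-10; corrected 0.71). EVI5, which acts on RAB11, and RABGAP1L fell by -1.25 and -1.06 (edgeR adjusted p = 1.88e-07 and 2.09e-06; corrected -0.68 and -0.48). These 6 genes passed in both fits in the same direction.

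Effectors were read by route, against the same shares of all genes, and the 3 largest changes among members of at least 5 CPM are named from each list. Of 22 tested endocytic effectors, 5 rose and 10 fell (corrected 4 and 7). The early endosome tether EEA1 fell from 21.6, 20.7 and 20 to 11.7, 10.7 and 9.36 CPM (log2 -0.97, edgeR adjusted p = 6.61e-07; corrected -0.35), and the RAB5 effectors RABEP1 and APPL1 fell by -0.63 and -0.65 (corrected -0.32 and -0.16). Of 15 recycling effectors, 7 rose and 5 fell (corrected 3 and 4). The myosin motors MYO5C and MYO5A and the RAB35 effector ACAP2 fell by -1.02, -0.72 and -1.03 (corrected -0.71, -0.27 and -0.46), with MYO5C at 63.8, 60.1 and 62.8 against 33.6, 27.2 and 31.2 CPM (edgeR adjusted p = 1.76e-08). Of 19 Golgi effectors, 4 rose and 11 fell (corrected 1 and 9), and the tethers USO1 and GOLGB1 and the phosphatase OCRL fell by -0.77, -0.90 and -0.67 (corrected -0.33, -0.39 and -0.42).

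Of 26 secretory effectors, 11 rose and 11 fell (corrected 11 and 4). SYTL2, a synaptotagmin-like protein that docks RAB27 vesicles, had the largest change among the effectors named. It stood at 1.76, 2.04 and 1.69 CPM in parental and 6.56, 6.96 and 7.15 CPM in trastuzumab libraries, 3.77-fold higher (log2 1.91, SE 0.167, edgeR adjusted p = 9.88e-08), and its corrected value was 2.4. It rose while RAB27B, a Rab it can bind, was lower without correction. MICAL1 rose by 0.85 and EHBP1, an effector of RAB8 and RAB10, fell by -0.86 (edgeR adjusted p = 6e-05 and 9.03e-07; corrected 0.60 and -0.44).

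Small GTPases of the ARF family were read the same way. Of 25 tested genes, 7 rose and 9 fell (corrected 6 and 6), with a median log2 fold change of -0.0864. Over all genes, 23.9% rose and 25.4% fell (corrected 18.3% and 19.0%). ARL11 rose from 6.22, 6.72 and 5.95 to 14.6, 15.5 and 12.9 CPM (log2 1.18, edgeR adjusted p = 3.74e-07; corrected 1.24). SAR1B, a part of the COPII coat that loads carriers for the Golgi, fell by -0.82 (edgeR adjusted p = 5.17e-07; corrected -0.30).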

How the data were processed

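Per the labels' protocols, RNA was purified on columns, 1 µg went into each library, and libraries were made with a directional kit. The authors deposited whole-number counts per gene, not normalized, and FPKM values for 33686 of the 60612 genes. STAR 2.4.2a and hg38 were used, per the submitters' processing notes. How reads were counted (program, strand, annotation) is not given in the sources used here. Reads of near copies and of overlapping genes therefore cannot be told apart, and 20 tested RAB genes overlap another gene of at least 1 CPM.

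Counts were tested over all genes with edgeR 4.0.16 (R 4.3.3): TMM, filterByExpr, robust quasi-likelihood F test without covariates, Benjamini-Hochberg adjustment over the 17854 tested genes, threshold 0.05. The corrected fit used splines (5 degrees of freedom each) on transcript GC content and exonic length from GENCODE 29 as offsets for 17649 genes. Levels between genes used FPKM. The uncorrected edgeR fit was run on simulated counts without a GC or length trend, and the corrected fit was not. The rule named RAB genes past the threshold of at least 1 CPM with a log2 fold change of at least 0.5 in size, the leading gene of each route, all pair members, and up to 3 changed genes of at least 5 CPM per list; the remaining RAB genes are named after their values were seen. Some genes and 1 list are not reported here. The members and lists were chosen with earlier results of these data known. Replicates within a group differed by more than counting noise (chi-square per degree of freedom 19.1 to 29.2). Of the list symbols, 2 older names matched no gene. Alternatives used limma 3.58.1 and DESeq2 1.42.0.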

Additional observations from a re-analysis of the deposited data

How the results depend on the processing

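Over 18 alternatives without a GC term (other scaling, filters, tools, FPKM, threshold, block and left-out libraries), 23 of the 31 RAB genes called kept their call in each. The others were RAB2B, RAB33B, RAB35, RAB36, RAB37, RAB5A, RAB6D and RAB8B. RAB7A and RAB11B passed with upper quartile factors, and RAB14 and RAB28 on FPKM. Leaving out each library in turn gave 12 to 13 RAB genes higher and 14 to 16 lower, and 3 to 4 Golgi genes lower instead of 5. An adjusted p below 0.01 left 2 Golgi genes lower. With limma on log2(FPKM + 1) and log2(FPKM + 0.1), 1 recycling gene was lower, and without a filter on FPKM 3 secretory genes were lower. Leaving out a library, which was added for pairs after the data were seen, kept the direction of 11 of 13 pair ratios. It did not for RAB4A/RAB4B (-0.39 to 0.57) and RAB3B/RAB3D (-0.020 to 0.15).

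Same-numbered libraries of both groups did not deviate together (Pearson r 0.0379, -0.034 and -0.0276), so no pairing by replicate number was seen. Such values cannot exclude that same-numbered libraries were grown or prepared together. With the replicate number as a block, RAB6D lost its call (edgeR adjusted p = 0.0726).

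With GC content and length offsets, GC content offsets alone, and both with the replicate block, in that order, counts moved as follows. Endocytic genes lower were 2, 2 and 1, recycling genes lower 2, 2 and 2, Golgi genes lower 2, 1 and 2, secretory genes higher 2, 1 and 1, and other genes higher 0, 0 and 0. GC content offsets alone gave 10 RAB genes lower, 5 endocytic genes higher and 3 secretory genes lower. Sign changes are listed next only for genes called in the uncorrected fit, in the offset fit named, or in both. The 19 sign changes given earlier for GC content and length also count genes called in neither. Log2 fold changes with the opposite sign were, in the same order, RAB11A 0.39, 0.39 and 0.39, RAB11B -0.26, -0.21 and -0.27, RAB14 0.34, 0.39 and 0.34, RAB15 -0.041, -0.053 and -0.041, RAB18 0.069, 0.051 and 0.069, RAB21 0.33, 0.15 and 0.33, RAB22A 0.24, 0.13 and 0.24, RAB35 -0.17, -0.16 and -0.17, and RAB5A 0.066, 0.12 and 0.066. With length and without or with the block, RAB24 gave -0.040 and -0.039 and RAB5C -0.029 and -0.029. RAB3A gave -0.38 with GC content and length, RAB3D -0.16 with the block added, and RAB9A 0.30 with GC content alone. RAB3D and RAB9A also had the opposite sign with GC content and length (-0.16 and 0.19), where neither passed. The cause was not tested. The depth limits members under about 1 CPM, none of which changed in both fits.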
